A study of Mus musculus with 71 samples.

Results

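The hippocampus of adult mice that lost the histone methyltransferase G9a (gene Ehmt2) in forebrain neurons was set against the hippocampus of littermates that kept it. The comparison takes every array titled as a G9a hippocampus sample, 7 of the 71 arrays of the study, and covers all genes with a name on the array. The 4 mutants were Camk2a-Cre; G9afl/fl mice. The 3 controls were G9afl/fl mice, so both groups carried the floxed Ehmt2 alleles and by the labels only the mutants carried the Cre driver. The study design gives 10 to 14 weeks of age and the extraction protocol 12 weeks, with controls matched for age and sex; the design also speaks of 4 replicates, of which 3 control arrays were analysed here. Total RNA of whole dissected tissue was amplified in a pair of cycles before hybridisation. Sex, read from Xist and Y-linked genes, was female for mutants 1 and 2 and control 1, and male for mutants 3 and 4 and controls 2 and 3. The comparisons used beside it were loss of GLP (Camk2a-Cre; GLPfl/fl, 4 mutants against 4 controls) in the same region and the cortex (2 mutants, 2 controls) and striatum (4 mutants, 4 controls) of G9a animals, each with controls of its own.

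G9a and its partner GLP (gene Ehmt1) form a complex that adds the first methyl groups to histone H3 at lysine 9, a modification found at silent genes in euchromatin. The pair is known for holding down developmental and lineage-specific genes in cells that should not use them, and G9a has been studied in the hippocampus for its part in memory and in the choice of neuronal genes. The Camk2a promoter drives Cre in excitatory forebrain neurons after birth, so interneurons, glia, vessels and meninges of the tissue keep the gene. Because whole tissue was measured, fewer cells of a type and less RNA per cell cannot be told apart in any result below.

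All values are the authors' GCRMA intensities taken as log2, on which 0 is the median of an array, and a difference of 1 is a doubling. Among the 7 arrays control 2 stood apart. It correlated with the others at 0.978 to 0.984 across genes, whereas the other 6 correlated with each other at 0.991 or more. Control 2 also went against its label at the driver locus, as described next, so counts are given with and without it. As a check of the labelled tissue, Prox1, the homeobox factor of dentate granule cells, was at 3.28 to 3.64 in mutants and 3.42 to 3.82 in controls.

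Ehmt2 was lower in every mutant. Its brighter probe set read 3.88, 4.21, 4.10 and 4.31 in mutants 1 to 4, against 5.46, 4.95 and 5.47 in controls 1 to 3. The groups did not overlap, the mean signal in mutants was 44.6% of that in controls, and the change of -1.17 (SE 0.15) had an adjusted p of 7.05e-08. Without control 2 the change was -1.34 (adjusted p = 4.30e-08). A dimmer Ehmt2 probe set lay at -0.31, -0.36, -0.22 and -0.23 in mutants, against -0.29, 1.31 and -0.28 in controls, so it was above the array median in control 2 alone. Whether either probe set lies in the floxed part was not tested. Ehmt1 did not pass the test, at 2.35 ± 0.08 in mutants (SD, n = 4) and 2.21 ± 0.11 in controls (SD, n = 3), a difference of 0.14 (adjusted p = 0.781).

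A pair of neighbours of Camk2a, the gene whose promoter drives Cre, set the mutants apart from controls 1 and 3 but not from control 2. Slc6a7, a brain proline transporter, read 7.28, 7.19, 7.14 and 7.16 in mutants, against 5.08, 7.50 and 5.25 in controls. Arsi, a sulfatase, read 3.42, 3.79, 4.19 and 3.64 in mutants, against 0.26, 3.17 and 0.19 in controls. Control 2 was at or near the mutant level for both genes while controls 1 and 3 were well below. Arsi passed the test with all arrays (2.55, SE 0.41, adjusted p = 1.98e-05), and Slc6a7 only without control 2 (2.03, adjusted p = 0.0019, against 1.25 and 0.117 with it). In the GLP hippocampus, mutants lay at 6.66 to 7.07 for Slc6a7, and 1 of 4 controls, at 7.12, also stood at the mutant level. Whether control 2 carried the driver was not tested.

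**Figure D1:**
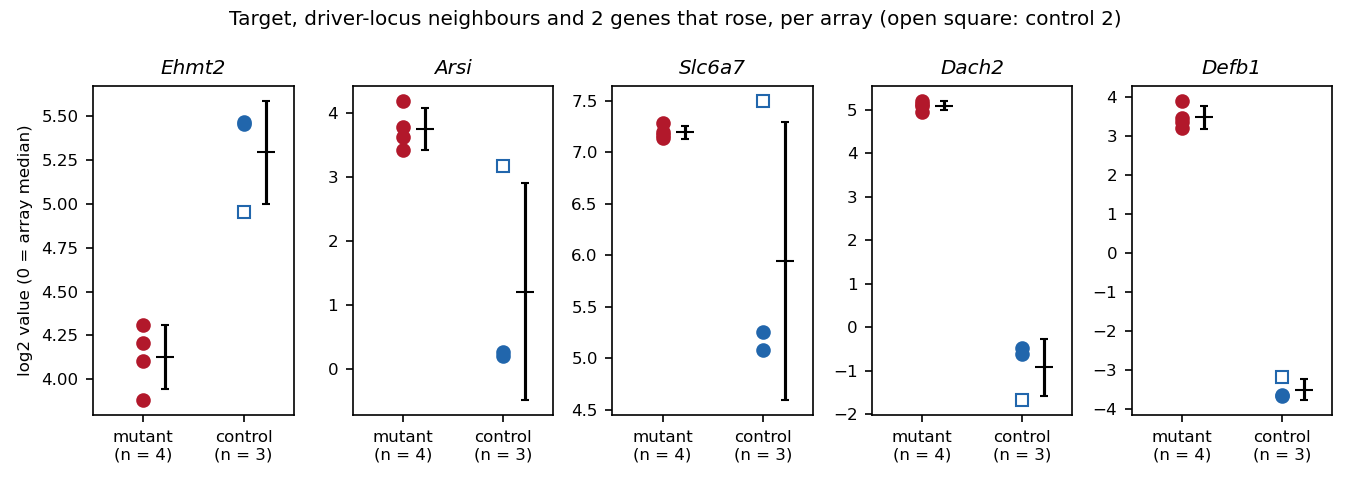
Log2 values of Ehmt2, of the Camk2a neighbours Arsi and Slc6a7, and of Dach2 and Defb1, 1 point per array, mutants (n = 4) left and controls (n = 3) right, with bars for mean and SD. Control 2, the open square, is at 3.17 for Arsi and 7.50 for Slc6a7, beside the mutants, and at -1.68 for Dach2 and -3.18 for Defb1, beside the other controls.

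For most genes that rose, control 2 lay with the other controls. In a fit that never used it, 151 genes were higher in mutants, and control 2 was nearer to controls 1 and 3 than to the mutants for 137 of them. Its median position was 2.67% of the way from those controls to the mutant mean. The exceptions were led by Slc6a7 and by Syt2, a vesicle calcium sensor, which read 3.93, 3.87, 4.07 and 3.87 in mutants, against 1.90, 4.08 and 1.15 in controls. Of 41 genes that were lower in mutants in that fit, control 2 was nearer to the other controls for 27, at a median of 30.2% of the way.

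Many more genes were higher than lower in the mutants. Of 11741 genes tested in a limma fit, 324 (2.76%) passed an adjusted p of 0.05: 268 were higher in mutants (2.28%) and 56 were lower (0.477%). The mutant and control arrays did not overlap for 298 of these 324 genes, against 12.4% of all genes tested. Without control 2 the counts were 151 up (1.28%) and 41 down (0.347%) of 11832 tested, of which 139 and 32 were among those called with it. Without mutant 4 the count up was 173, and without mutants 1 or 2 the counts down were 35 and 34. At an unadjusted p under 0.05 there were 1400 genes.

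The rises were larger than the falls. The median change was 0.83 among genes up and -0.63 among genes down, and 0.03 over all genes tested. On the log2 scale 39 genes rose by more than 2 and 107 by more than 1, whereas 8 genes fell by more than 1. These counts take each change as it stands, also where controls lie below the array median. For such genes part of the change rests on signals near background, and the counts are not counts of folds above the median. Controls were on average below the array median for 62 of the 268 genes up. Another 186 genes with a control mean below the median were tested and not called. A gene below the median in all controls could enter the test only through the mutants, so the counts among dim genes are no measure of how common rises were there. The other 206 genes up were above the median in controls, 81 of them more than 4-fold above it.

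**Figure D2:**
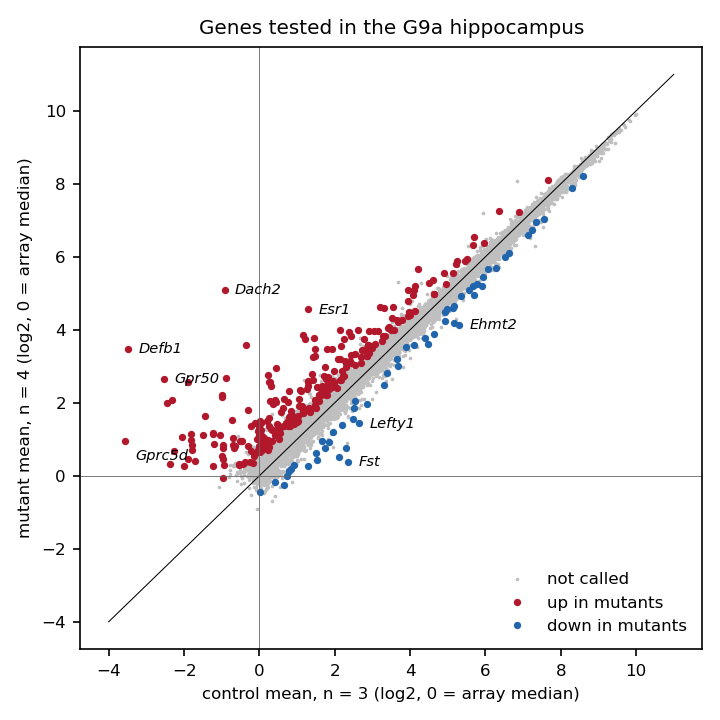
Mean log2 value in mutants (vertical, n = 4) against that in controls (horizontal, n = 3) for all 11741 genes tested, with the 268 genes up in red and the 56 down in blue. The red points reach far to the upper left, led by Defb1 and Dach2, while the blue points stay near the diagonal.

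Defb1 and Dach2 had the largest rises. Defb1, an antimicrobial peptide of epithelia, read 3.46, 3.89, 3.35 and 3.21 in mutants, against -3.67, -3.18 and -3.63 in controls. Mutants were all above the array median and controls all far below it, a change of 6.97 (SE 0.58, adjusted p = 4.40e-13). Where controls average below the median, a fold is given as a lower bound taken from the median: Defb1 was at least 11.1-fold higher. Dach2, a dachshund-type transcription cofactor known from limb and muscle development, read 5.20, 5.08, 4.96 and 5.13 in mutants, against -0.48, -1.68 and -0.61 in controls. It was at least 34.1-fold higher in mutants, a change of 6.01 (SE 0.23, adjusted p = 4.34e-26).

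Orphan receptors followed. Gpr50, a relative of the melatonin receptors that is found in the hypothalamus, read 3.01, 2.64, 2.59 and 2.37 in mutants, against -3.38, -2.29 and -1.97 in controls. Gprc5d, an orphan receptor known from hair follicles and plasma cells, read 1.16, 1.00, 0.95 and 0.68 in mutants, against -3.64, -3.40 and -3.65 in controls. Every mutant was above the array median and every control was far below it for both genes. They were at least 6.28-fold and 1.93-fold higher (adjusted p = 3.97e-15 and 1.01e-22).

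Tyrp1, an enzyme of melanin synthesis, averaged 2.07 in mutants and -2.32 in controls (adjusted p = 2.68e-10). It was the 1 of 4 pigment cell genes tested that rose, against 2.28% of all genes tested. Tyrp1 was below the array median in all controls and entered the test only through the mutants. Cst12, a cystatin, averaged 2.01 in mutants and -2.44 in controls. Mettl24, a putative methyltransferase, read 2.73, 3.63, 3.87 and 4.11 in mutants, against -0.35, -0.49 and -0.23 in controls, and was at least 12.0-fold higher. All 3 kept their calls without control 2. Esr1, the estrogen receptor alpha, was already expressed in controls: it read 4.36, 4.86, 4.51 and 4.51 in mutants, against 1.54, 0.77 and 1.55 in controls. This was a 9.67-fold rise (3.27, SE 0.31, adjusted p = 2.37e-11). Among 29 nuclear receptors tested Esr1 was the only rise and Nr3c2, described below, the only fall. Over all genes tested 2.28% rose and 0.477% fell, so the list holds about as many rises as any genes.

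Promoters of 3 of these genes and of 1 that fell, Slc5a5, are shown because they span the range from few to many CpG sites, the sites at which DNA methylation accompanies H3K9 methylation at some genes. Each is RefSeq's window of GRCm38.p6 from 250 bases before to 50 after the gene's start, on the gene's strand, with every CG in capitals.
Gprc5d, chr6:135118234-135118533, minus strand: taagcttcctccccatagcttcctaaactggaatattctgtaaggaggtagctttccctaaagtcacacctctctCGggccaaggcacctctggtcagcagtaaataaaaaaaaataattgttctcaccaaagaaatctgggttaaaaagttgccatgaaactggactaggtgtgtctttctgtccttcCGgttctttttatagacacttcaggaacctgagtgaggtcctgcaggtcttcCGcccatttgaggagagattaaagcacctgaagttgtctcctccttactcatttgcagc
Tyrp1, chr4:80833963-80834262, plus strand: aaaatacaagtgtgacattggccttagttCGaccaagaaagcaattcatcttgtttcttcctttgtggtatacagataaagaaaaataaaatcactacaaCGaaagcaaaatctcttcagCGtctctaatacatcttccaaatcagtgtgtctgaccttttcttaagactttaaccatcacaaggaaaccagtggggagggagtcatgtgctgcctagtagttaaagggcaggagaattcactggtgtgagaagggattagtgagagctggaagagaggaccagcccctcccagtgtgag
Mettl24, chr10:40683032-40683331, plus strand: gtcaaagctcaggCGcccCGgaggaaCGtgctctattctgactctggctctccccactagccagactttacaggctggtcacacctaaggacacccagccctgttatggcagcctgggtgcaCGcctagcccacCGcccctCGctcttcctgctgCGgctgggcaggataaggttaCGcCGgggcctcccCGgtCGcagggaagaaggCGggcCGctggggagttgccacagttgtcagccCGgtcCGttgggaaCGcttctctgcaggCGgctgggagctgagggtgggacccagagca
Slc5a5, chr8:70892708-70893007, minus strand: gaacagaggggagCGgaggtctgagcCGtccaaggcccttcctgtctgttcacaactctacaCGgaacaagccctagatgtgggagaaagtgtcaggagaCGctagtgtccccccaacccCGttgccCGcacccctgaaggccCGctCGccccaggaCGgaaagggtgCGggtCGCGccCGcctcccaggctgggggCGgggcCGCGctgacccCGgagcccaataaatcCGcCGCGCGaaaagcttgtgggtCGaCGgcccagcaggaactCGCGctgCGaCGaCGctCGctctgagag
Gprc5d and Tyrp1 hold 3 CG each, a number that 31.4% of the 32851 windows of this length do not exceed. Mettl24 holds 17 and Slc5a5 29, which 70.3% and 88.3% of windows do not exceed. A window was matched for 211 of the 268 genes up, 39 of the 56 down and 9513 of the 11741 tested. Of genes with a window, 25.1% up, 7.69% down and 5.37% of all tested held under 5 CG. Among genes above the array median in controls, it was 17.7% of genes up, against 4.77% of genes not called. Low signal went with few CG. Of all genes on the array, 40.2% of those below the median in controls held under 5, against 5.18% above it. Genes without a window could not be counted, and whether CpG content bears on the rises was not tested.

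Genes of striated muscle were among the larger rises. Of 42 listed genes 16 passed the filter on low values, and of these 7 rose and 0 fell, with a median change of 0.85, against 2.28% up and a median of 0.03 over all genes. Without control 2 it was 8 of 17. As stated for dim genes, some members entered only through the mutants, here and in the lists below, so the counts describe the genes tested and not whole lists. Contractile genes led: Myh1, a fast muscle myosin heavy chain, read 3.04, 2.46, 2.24 and 2.51 in mutants, against -1.87, -2.44 and -1.39 in controls. Tnnt2, cardiac troponin T, read 3.21, 2.35, 2.38 and 2.75 in mutants, against -0.82, -1.04 and -0.79 in controls. Both were below the array median in all controls and at least 5.90-fold and 6.38-fold higher in mutants.

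Further myosins, Myh7 of slow and heart muscle and Myh8 of perinatal muscle, rose by 1.38 and 2.16. Myom2, a protein of the sarcomere's M band, averaged 2.58 in mutants and 0.29 in controls (adjusted p = 0.000193). Pgam2, the muscle form of a glycolytic enzyme, rose by 1.67 and Chrna1, the muscle acetylcholine receptor subunit, by 1.74. Outside the list, Sln, which inhibits the calcium pump of muscle, averaged 1.13 in mutants and -1.50 in controls, and Asb5 1.14 and -1.24. Ttn, the giant sarcomere protein, did not pass the test: it lay between -0.15 and 0.05 in mutants, against -0.97, 2.62 and -0.51 in controls, so its sign rests on control 2 (0.71 without it).

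Some enzymes of foreign compounds and of tryptophan also rose. Among 26 glutathione and xenobiotic enzymes 5 rose and 0 fell, with a median of 0.20, against 2.28% up, 0.477% down and a median of 0.03 over all genes tested. Without control 2, 4 of 28 rose, against 1.28% of all. Aldh3a1, an aldehyde dehydrogenase of cornea and stomach, averaged 1.07 in mutants and -2.05 in controls. Gsta2, a glutathione transferase, varied among mutants, at 1.82, 0.87, -0.90 and 0.91, against -1.85, -2.43 and -2.48 in controls. Gstm7 and Ces5a, a carboxylesterase, rose by 0.88 and 1.00.

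Ido2 and Tdo2 both encode enzymes that open the ring of tryptophan, the first step of the kynurenine pathway. Ido2 read 0.19, 0.81, 1.86 and 1.73 in mutants, against -1.80, -1.69 and -1.94 in controls. Tdo2, in the brain a marker of dentate granule cells, averaged 3.24 ± 0.52 in mutants and 1.41 ± 0.68 in controls (adjusted p = 0.000626). The groups did not overlap for either gene.

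Genes of secreted proteins and of immune cells were also among the rises. Of 21 secreted epithelial genes on the array 6 passed the filter on low values. Of these 6, Defb1, Cst12 and Olfm4, a secreted glycoprotein of gut crypts, rose and 0 fell, against 2.28% up over all genes tested. Defb1 and Cst12 were below the array median in all controls and entered the test only through the mutants. Icos, a T cell costimulatory receptor, averaged 0.99 in mutants and -1.81 in controls. Bank1, a scaffold of the B cell receptor, read 3.74, 3.92, 3.93 and 3.87 in mutants, against 1.45, 0.80 and 1.22 in controls, and Blnk, another B cell adaptor, 1.81 and -0.31 on average. Bank1 was the only 1 of 5 blood cell markers tested that rose, and the pan-leukocyte marker Ptprc stood at 1.14 to 1.74 in mutants and 0.86 to 1.53 in controls.

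Of 29 interferon-stimulated and antigen presentation genes 3 rose and 0 fell, with a median of 0.27, against 2.28% up and a median of 0.03 over all genes tested. Without control 2, 1 of 29 rose, against 1.28% of all. Ifitm2 was the one that kept its call, at 1.39, 2.33, 2.07 and 2.27 in mutants, against 0.77, 0.86 and 0.61 in controls. Casp1, the protease that matures interleukin 1 beta, averaged 1.54 in mutants and -0.73 in controls (adjusted p = 1.63e-06). The serpin protease inhibitors Serpinb1b, Serpinb9 and Serping1 rose, 3 of 10 tested with 0 down, and Serpinb1b alone kept its call without control 2.

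**Figure D3:**
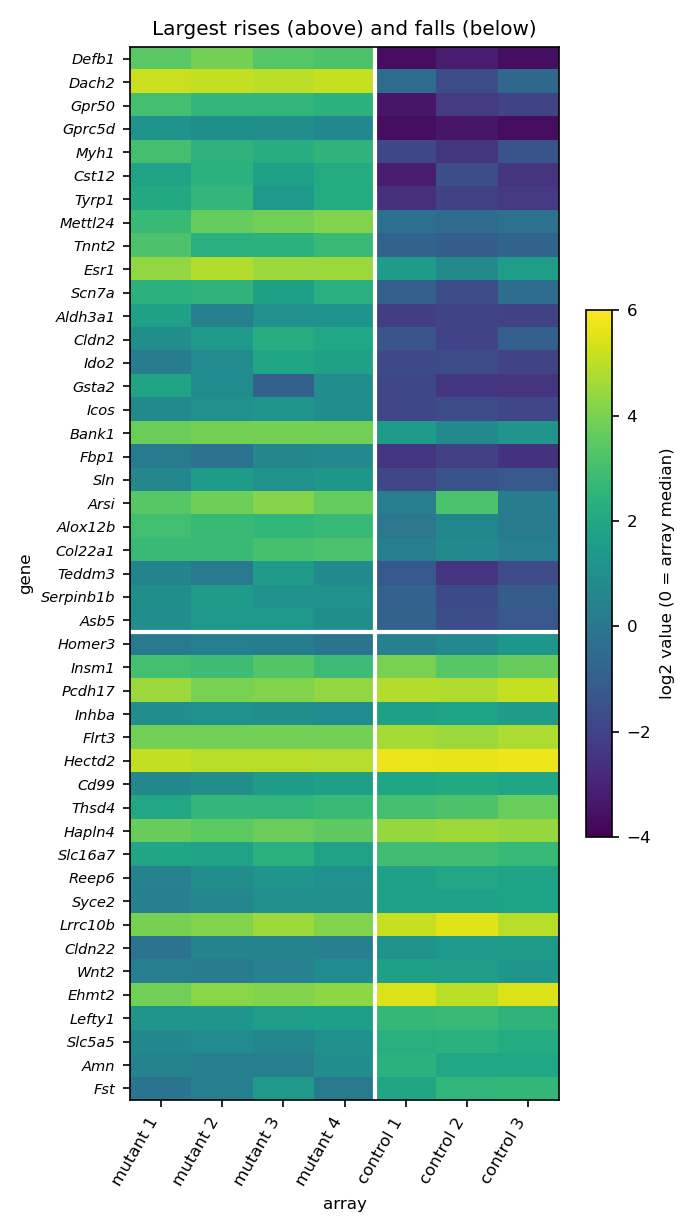
Log2 values by array for the 25 largest rises (upper block) and 20 largest falls (lower block) whose arrays do not overlap, mutants in the left 4 columns and controls in the right 3. In the upper block Arsi in control 2, at 3.17, is close to the mutants, at 3.42 to 4.19. In the lower block the differences are smaller, led by Fst.

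Among cell type lists, macrophage and meningeal genes held the most calls. Over all genes tested 2.28% rose, the median was 0.03 and 57.9% were on average higher in mutants. Of 23 microglia and macrophage markers 5 rose, with a median of 0.13: Cd163, Mrc1 and F13a1, known from macrophages at the borders of the brain, and the lysozymes Lyz1 and Lyz2, which are near-identical and neighbours, so that their probes may share signal. Mrc1 read 0.44, 0.46, 0.98 and 1.92 in mutants, against 0.14, -0.10 and 0.23 in controls. Pf4 and Cd209f, also known from border macrophages, did not pass the test, with differences of 0.53 and -0.03 (adjusted p = 0.23 and 0.98). The microglial markers Tmem119, P2ry12 and Cx3cr1 did not pass the test, with differences of 0.03, -0.03 and -0.09. Of 28 meningeal and fibroblast markers 6 rose and 0 fell, with a median of 0.64, and 26 of 28 were on average higher in mutants. Their mean level was 2.23, 2.53, 2.57 and 3.29 in mutants, against 1.82, 2.02 and 2.27 in controls, so mutant 4 was the highest and mutant 1 lay below control 3. Without control 2, 3 macrophage and 3 meningeal markers passed. All 22 endothelial and mural markers tested were on average higher in mutants, with a median of 0.25, and Emcn, an endothelial sialomucin, alone passed the test. The part of these cells in other rises was not tested.

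Ttr, the thyroid hormone carrier that the choroid plexus secretes, overlapped between the groups and read 8.99, 8.05, 8.28 and 7.03 in mutants, against 7.53, 6.21 and 6.76 in controls (adjusted p = 0.78). Cldn1 and Cldn2, tight junction claudins, were the 2 of 17 choroid plexus and ependymal markers that passed the test, and Cldn2 lost its call without control 2. Of the 17, 14 were on average higher in mutants, with a median of 0.23. Over all genes tested 57.9% were higher, with a median of 0.03, and 2.28% were called up. The mean level of the 17 was 2.08, 1.80, 2.13 and 1.80 in mutants, against 1.42, 1.19 and 1.65 in controls, so the groups did not overlap. No gene passed the test in either direction among 20 astrocyte and 20 oligodendrocyte markers, with medians of 0.04 and -0.11. Counts were also 0 for 16 CA3, 8 CA2 and 6 mossy cell markers, 16 genes of immature neurons and 48 of the respiratory chain.

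Genes of hippocampal neurons held few calls, and not all of these were falls. Of 12 markers of CA1 pyramidal cells 2 fell and 0 rose, against 0.477% of all genes, with a median of -0.24. Man1a, a Golgi mannosidase, averaged 5.45 in mutants and 5.95 in controls, and Zdhhc2, a palmitoyltransferase, 4.66 and 5.15, but neither passed without control 2 (adjusted p = 0.055 and 0.094). Among 18 dentate granule markers Tdo2 rose and Calb1, the calcium buffer calbindin, fell: Calb1 read 6.57, 6.92, 7.15 and 7.14 in mutants, against 7.24, 7.35 and 7.46 in controls (adjusted p = 0.031, and 0.12 without control 2). Of 11 glutamatergic neuron markers the homeobox factor Cux2 rose, though not without control 2, and 0 fell, with a median of -0.06. Of 20 GABA interneuron markers 1 rose and 0 fell, against 2.28% up over all genes tested. Among 32 glutamate receptors and scaffolds 2 fell and 0 rose, and 1 fell without control 2. The 14 GABA receptors gave 0 calls, and 1 of 15 rose without control 2. Nr3c2, the mineralocorticoid receptor, fell by 0.46, and Gria3, a glutamate receptor subunit of the AMPA type, fell by 0.50. Both passed without control 2 but not under every other choice: Nr3c2 lost its call without mutants 1 or 2 or control 1, and Gria3 without mutants 2, 3 or 4 or controls 1 or 3, and both lost it in the fit of the 7 arrays alone (adjusted p = 0.068 and 0.113).

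Antagonists and a ligand of the activin, nodal and BMP pathway were among the falls. In this pathway follistatin and gremlin are secreted antagonists of activin and of BMP, and activins act through receptors that signal to SMAD proteins. Of 38 members tested 4 fell and 1 rose, with a median of 0.10, against 0.477% down, 2.28% up and a median of 0.03 over all genes tested. Fst, follistatin, had the largest fall of all named genes: it read -0.20, 0.31, 1.39 and 0.06 in mutants, against 1.87, 2.59 and 2.63 in controls (-1.97, SE 0.32, adjusted p = 1.98e-05). Lefty1, an antagonist of nodal, read 1.22, 1.24, 1.62 and 1.66 in mutants, against 2.66, 2.77 and 2.51 in controls. Every mutant was below every control for both genes.

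Inhba, the activin beta A subunit, averaged 0.97 in mutants and 1.66 in controls, and Grem1, gremlin, -0.18 and 0.42. Bmp5 was the member that rose, at 1.78 in mutants and 0.84 in controls. Fst, Lefty1 and Grem1 fell without control 2 as well, while Inhba and Bmp5 did not pass there (adjusted p = 0.18 and 0.35).

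Single transporter and matrix genes were also among the falls, while others of both kinds rose, such as the transporter Slco2a1 and the collagen Col1a2. Slc5a5, the sodium iodide symporter of the thyroid, whose CpG-rich promoter is printed above, read 0.65, 0.83, 0.59 and 1.00 in mutants, against 2.31, 2.40 and 2.16 in controls, and was 2.86-fold lower. Amn, which serves vitamin B12 uptake in gut and kidney, averaged 0.51 in mutants and 2.12 in controls (adjusted p = 2.48e-05). Slc16a7, the neuronal monocarboxylate transporter MCT2, averaged 1.96 in mutants and 2.86 in controls. Hapln4, a link protein of perineuronal nets, read 3.69, 3.5, 3.71 and 3.53 in mutants, against 4.41, 4.56 and 4.42 in controls. Flrt3 and Pcdh17, adhesion proteins of synapse and axon, fell by 0.75 and 0.69. The falls of Slc5a5, Amn, Slc16a7, Hapln4, Flrt3 and Pcdh17 all kept their calls without control 2. In the list of 64 axon guidance and adhesion genes 3 rose and 3 fell, with a median of -0.04. Over all genes tested 2.28% rose and 0.477% fell. In the list Flrt1, of the same family as Flrt3, rose by 0.62 (adjusted p = 0.000177), as did Epha3 by 0.91 and Cdh22 by 0.64. Epha4 was the other that fell. Of these 6, Epha3, Cdh22 and Epha4 did not pass without control 2.

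Transmitter receptors held calls in both directions, and vesicle genes held rises only. Of 34 receptors for amines, acetylcholine, opioids and peptides 5 rose and 1 fell, with a median of 0.08, against 2.28% up and 0.477% down over all genes tested, where rises also outnumbered falls. Crhr1, the receptor of corticotropin-releasing hormone, read 2.01, 1.85, 1.86 and 1.96 in mutants, against 1.20, 0.99 and 0.95 in controls, and Ntsr1, a neurotensin receptor, averaged 0.85 and -0.70. Unc13c, a priming factor of synaptic vesicles, averaged 4.62 in mutants and 3.55 in controls. In all, 3 of 35 vesicle genes rose and 0 fell, and 2 rose without control 2. Nos1, the neuronal nitric oxide synthase, rose by 0.75. Of 33 immediate early genes 2 rose, Fos and Dusp1, and 1 fell, Inhba, but 0 passed in either direction without control 2: Fos read 5.04, 5.17, 3.75 and 4.57 in mutants, against 3.31, 2.78 and 3.53 in controls.

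Other parts of the H3K9 system moved little. Of 13 methyltransferases and partners only Ehmt2 changed, and 13 Polycomb genes gave 0 calls. Dnmt1, the maintenance DNA methyltransferase, was 3.69 in mutants and 3.25 in controls (adjusted p = 0.0281), and the H3K9 demethylase Kdm3b was 3.53 and 3.90 (adjusted p = 0.0431). Neither passed without control 2 (adjusted p = 0.13 and 0.15).

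**Figure D4:**
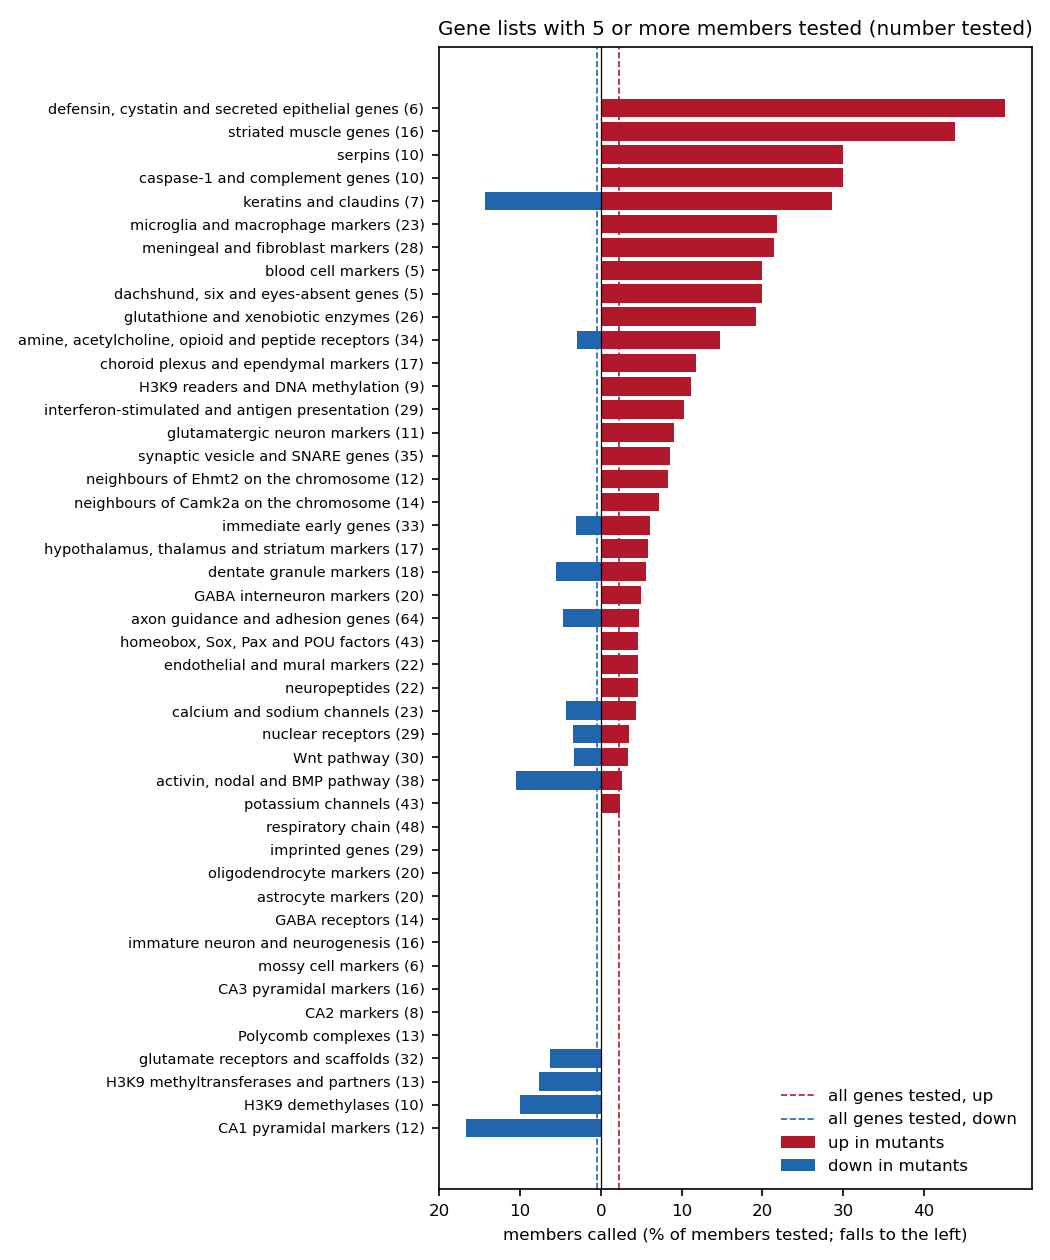
Share of tested members called up (red, to the right) and down (blue, to the left) for each gene list with 5 or more members tested, with the number tested in brackets. Dashed lines are the shares over all genes tested, 2.28% up and 0.477% down. Short lists give coarse shares, and the secreted epithelial list rests on 6 genes.

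Other readouts of the called genes were also compared with those of the rest. A second probe set moved the same way for 87.7% of 114 probe sets of genes up and 89.2% of 37 of genes down, against 64.6% for genes not called. These probe sets read the same RNA on the same arrays, so the shares are no separate test of the calls. A probe set was kept if the mean of mutants or of controls was above the array median, so some entered only through the mutants. In the controls of the GLP animals, 23.1% of genes up were more than 2-fold higher in hypothalamus than in hippocampus, against 7% of all genes tested, and 14.6% were more than 2-fold lower, the same share as of all genes. In striatum 9.7% of genes up were higher and 13.1% lower, against 3.55% and 5.7% of all, and in cortex 13.8% were higher and 10.8% lower, against 3.14% and 5.91%. The genes up were dimmer: 62 of 268 averaged below the array median in G9a hippocampus controls, against 186 of 11417 genes not called. How far these shares rest on signals near background was not tested. Among genes down, 46.4% were more than 2-fold lower in hypothalamus and 1.79% higher, against 14.6% and 7% of all. In striatum 28.6% of genes down were lower and 14.3% higher, and in cortex 28.6% were lower and 5.36% higher.

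Of 258 genes up with a known place among neighbours on a chromosome, 16 or 6.2% lay next to another gene up, against 2.64% of genes not called. Ido2 lies next to Tcim, which averaged 1.01 in mutants and 0.07 in controls. Urah, which acts in purine breakdown, read 3.95, 3.18, 3.40 and 3.39 in mutants, against 1.64, 1.55 and 1.25 in controls, and its neighbour Zfp941 averaged 2.33 in mutants and 0.78 in controls. Blnk lies beside Zfp518a, and Hlf, a clock-related transcription factor, beside Stxbp4. Of 54 genes down with a known place 4, or 7.41%, had a neighbour that was up, such as Pcdh17 next to Olfm4, so a gene up was no rarer a neighbour of the genes down.

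Loss of GLP in the same region gave the same direction for most of these genes. Of the 268 genes up, 230 were on average higher in GLP mutants than in their own controls, against 43.0% of all genes tested, and 54 of 56 genes down were lower. With the test, 88 genes were up in both, 32.8% of the G9a list and 42.7% of the 206 genes up on loss of GLP, where 2.08% of genes were called and 1.76% were up. For genes down the shared count was 17, 30.4% of the G9a list and 45.9% of the 37 down on loss of GLP (0.317%). The G9a and GLP mice had separate controls, and control 2 of one set and 1 control of the other were both at the mutant level of Slc6a7.

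The change itself differed between the loss of G9a and of GLP for 19 of 12112 genes (0.157%), and for 8 without control 2. The change was above that on loss of GLP for 9 (0.0743%) and below it for 10 (0.0826%). The count was 12 without G9a mutant 1, 11, 10, 9 and 39 without GLP mutants 1 to 4, and 30 and 11 without GLP controls 1 and 3. Gprc5d had the smallest p, with a difference of 2.80 (SE 0.29, adjusted p = 7.39e-09). GLP mutants, at -2.49 to -1.03, lay below the array median but above all their controls, at -3.55 to -3.42, a change of 1.71. A difference between changes that start below the median rests on signals near background, so its size is not exact. This holds here and below for Gprc5d, Ido2, Krt79, Gpr50, Afp, Corin and Neb. It also holds for Pirt, Rgs18, Cyp2c23, Nxf3, Scara5 and Pla2g5. Such a gene can enter the test of the difference only through the mutants of the set where it is high. Gprc5d and Ido2 entered in this way through the G9a hippocampus mutants, as did Krt79 against cortex and striatum. Ido2 had a change of 2.95 here and 0.92 on loss of GLP, a difference of 2.03 (adjusted p = 0.000869). Tshz2, a zinc finger homeobox factor, read 4.18, 3.40, 4.08 and 4.31 in G9a mutants, against 2.41, 2.00 and 2.03 in their controls, whereas GLP mutants averaged 2.47 and their controls 2.78 (difference 2.15, adjusted p = 0.000182). In the other direction, Nudt7, a hydrolase of peroxisomes, was 0.88 higher in GLP mutants and differed by -0.09 here (adjusted p of the difference = 0.00912). These 4 differences also passed without control 2.

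Across regions the rises were partly shared. The cortex shared 48 genes up, 17.9% of the hippocampal list and 64.9% of the 74 up in cortex, and the striatum 50, 18.7% and 23% of 217. In the cortex 0.737% of genes were called (0.634% up), and in the striatum 3.03% (1.88% up). Of the 268 genes, 149 were called in none of the GLP hippocampus, the G9a cortex and the G9a striatum, a count that also depends on the size and spread of those groups. In all 4 comparisons 20 genes were up, among them Dach2, Defb1, Esr1, Tnnt2, Myom2, Pgam2, Olfm4 and Zranb3, and 3 were down: Amn, Reep6 and Kdm3b. Dach2 averaged 5.09 in mutants of the G9a hippocampus, 5.27 in those of the GLP hippocampus, 5.66 in those of the cortex and 4.57 in those of the striatum, with all 4 control groups below the array median.

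A difference of the change between hippocampus and cortex passed for 17 of 12235 genes (0.139%), and between hippocampus and striatum for 100 of 12024 (0.832%), with the higher change in the hippocampus for 9 (0.0736%) and 66 (0.549%) and the lower for 8 (0.0654%) and 34 (0.283%). Without control 2 these were 14 and 77. Gprc5d rose in the hippocampus and lay at -2.99 on average in G9a cortex mutants and -3.75 in striatum mutants, differences of 4.52 and 4.57 (adjusted p = 1.24e-13 and 1.03e-16). Krt79, a keratin of skin glands, rose by 2.36 here, with changes of -0.04 in cortex and -0.09 in striatum, and both differences passed (adjusted p = 0.000103 and 4.06e-07). Gpr50 changed by 5.19 here and 0.92 in striatum (adjusted p of the difference = 9.84e-08).

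Other genes rose more in the cortex or striatum than here. Afp, alpha-fetoprotein, lay at -3.15 to -2.91 in hippocampal mutants, against -3.33 to -2.59 in controls, and reached 1.92 on average in G9a cortex mutants and 3.89 in striatum mutants. Ttn averaged -0.03 in hippocampal mutants and 5.07 in striatal ones. Corin, a protease that activates natriuretic peptide in heart, averaged -0.51 in hippocampal mutants, -1.26 in their controls and 3.88 in striatal mutants. The differences of Afp, Ttn and Corin between hippocampus and striatum were -6.45, -7.34 and -4.58 (adjusted p = 6.56e-15, 5.39e-14 and 5.39e-14). Neb, the thin filament protein nebulin, was at -2.52 in hippocampal mutants, -3.13 in their controls and 1.34 in mutants of the cortex (adjusted p of the difference = 0.000163). Afp, Corin and Neb did not pass the filter on low values here, so their own change in the hippocampus was not tested. Zranb3, a DNA translocase, rose in both, by 1.23 here and 3.41 in cortex (adjusted p of the difference = 2.07e-07).

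**Figure D5:**
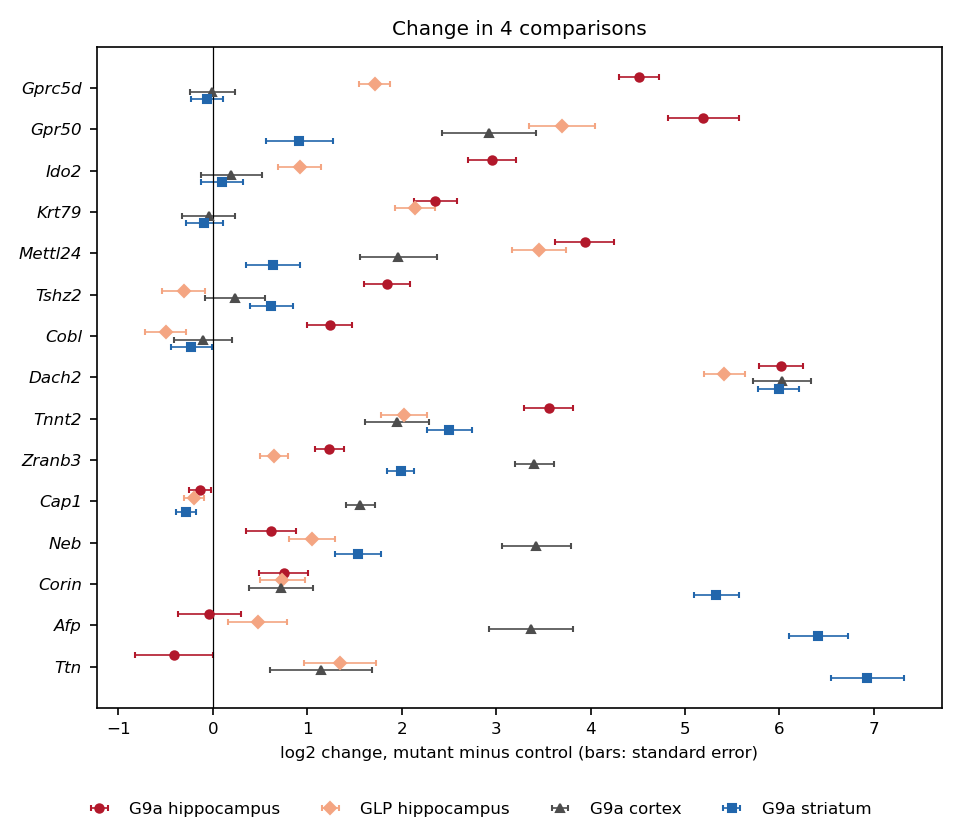
Log2 change, mutant minus control, with its standard error, for 15 genes in the G9a hippocampus (red circles), GLP hippocampus (orange diamonds), G9a cortex (grey triangles) and G9a striatum (blue squares). Gprc5d is at 4.51 in the G9a hippocampus and at 1.71, -0.01 and -0.06 in the others, and Afp and Ttn are near 0 in the G9a hippocampus and at 6.41 and 6.93 in the striatum.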

How the data were processed

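The deposited series table gives 1 linear intensity per probe set and array, made by the authors with GCRMA per the submitters' processing notes; no version is named there. Every array has a median of 1. From these intensities log2 values were computed without a pseudocount. Of 45101 probe sets, 34945 had 1 gene symbol in the platform annotation, which gave 18193 genes, with the brightest probe set on average taken per gene. The low-value filter asked for a log2 above 0 in 3 or more of the 7 arrays. A limma 3.58.1 fit in R 4.3.3 took the group means over all 59 whole-tissue arrays in 16 groups, so the spread is pooled over groups, with an intensity trend and Benjamini-Hochberg adjustment over all genes tested. Interactions compared changes between sets with separate controls.

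The study design calls its samples biological replicates, and the number of arrays limits the precision. On simulated data for this comparison, with 11690 genes, 88% of the genes with a true log2 change of 1 were found, 99% of those with a change of 2, and 3.11% of the calls were false. The simulation gave each gene the same spread in all groups and held no array that stood apart, as control 2 does. It changed only genes above the array median in controls. These rates therefore need not hold for the real calls. The labels number mutants and controls from 1. Same-numbered arrays deviated from their group means with correlations of 0.38, -0.16 and -0.06, so the numbers were not taken as pairs. Genes were named by rule: the 25 largest rises and 20 largest falls without overlap between groups, Ehmt1 and Ehmt2, up to 8 called members of each list, markers, the 10 smallest p of each interaction, and called neighbours. Slc6a7 and the genes of the closing observations were chosen after their values were seen. The members and gene lists were chosen with earlier results of these data known. Alternatives were the fit of the compared arrays alone, filters, a floor, array weights, no trend, sex, a replicate block, quantile normalization, all probe sets of a gene, and leaving out each array.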

Additional observations from a re-analysis of the deposited data

Results flagged for a closer look

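In the groups of 4 mutants, 3 values lay far from the other 3, a gap that chance gives in about 1 in 20 groups. The text names 127 genes with a call, and among so many groups 3 such gaps can arise by chance. Chrna1 in mutant 3 was at 1.49, with the other mutants at 0.87 to 0.90. Pgam2 in mutant 1 was at 2.81, with the others at 3.63 to 3.73. Igfbp5, a binding protein of insulin-like growth factors, was at 6.69 in mutant 3, with the others at 6.50 to 6.52. Each of these values was still above every control.

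For other genes the change on loss of G9a in the hippocampus differed from the change in another set, by the test of the difference. Against the loss of GLP in hippocampus, the difference was 2.80 for Gprc5d, 2.15 for Tshz2, 2.03 for Ido2, 1.74 for Cobl and 1.72 for Vwc2l, and -1.61 for Pla2g5, -1.03 for Ehmt2, -0.96 for Nudt7 and -1.82 for Scara5. Ehmt2 is the gene deleted in one set and not in the other. Cobl, Vwc2l and Scara5 did not pass without control 2 (adjusted p = 0.056, 0.16 and 0.076).

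Against the G9a cortex the difference was 4.52 for Gprc5d, 2.76 for Ido2, 2.40 for Krt79 and 2.04 for Pirt, and -1.70 for Cap1, -2.17 for Zranb3, -1.89 for Rgs18, -2.81 for Neb and -3.41 for Afp. Cap1, an actin regulator, averaged 4.68 in hippocampal mutants and 4.81 in their controls, and 6.03 in cortex mutants and 4.47 in theirs, with 2 arrays a group in cortex. Against the G9a striatum it was 4.57 for Gprc5d, 4.28 for Gpr50, 2.86 for Ido2 and 2.45 for Krt79, and -6.45 for Afp, -7.34 for Ttn, -4.58 for Corin, -3.17 for Cyp2c23 and -3.07 for Nxf3. The difference of Ttn was -6.22 without control 2.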

How the results depend on the processing

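The fall of Ehmt2 kept its direction and passed the test under every alternative run, between -1.34 and -0.85. Of 127 named genes with a call, 58 kept it in every alternative and leave-one-out fit in which they were tested. A gene that failed the filter on low values in a fit was not tested there. Krt79, for example, was tested in 4 of the 7 fits with 1 array left out. A further 69 lost the call in at least 1 fit, 45 of them without control 2, and 0 changed direction. Ttn, which had no call, turned to 0.53 with array weights and 0.71 without control 2. It lay between -1.08 and 0.71 with 1 array left out. The 268 genes up became 145 in the fit of the 7 arrays alone, where the spread is not pooled over regions, and 151 to 302 with 1 array left out. The 56 genes down became 114 with no filter on low values and 108 with array weights, and 34 to 61 with 1 array left out. With sex as a covariate there were 286 up and 60 down. Differences from the GLP hippocampus, 19 genes, became 7 in the fit of the compared arrays, 37 with no filter, 7 with a filter at a log2 value of 1, 56 with a floor at the array median and 59 with array weights, and 8 to 39 with 1 array left out. Differences from the cortex, 17 genes, became 8 in the fit of the compared arrays, 10 with the stricter filter, 50 with the floor and 54 with array weights, and 12 to 19 with 1 array left out. Differences from the striatum, 100 genes, became 162 with the floor and 151 with array weights, and 77 to 125 with 1 array left out. The cause of these shifts was not tested. With the replicate number as a block, mutant 4 having no partner, 216 genes were up and 54 down, with 16, 23 and 97 genes for the differences from GLP, cortex and striatum, and Ehmt2 was at -1.23. Signal near background limits the genes whose controls lie below the array median.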

Other observations

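A fit of the 7 arrays alone, which takes the spread from these arrays and not from all regions, called 188 genes, of which 128 up and 25 down were also called in the joint fit and 35 were not. The leading 1 of these 35 was Neurod6, a transcription factor of forebrain pyramidal neurons, which read 6.38, 6.17, 6.35 and 6.29 in mutants, against 7.50, 7.16 and 7.25 in controls. Every mutant was below every control, with a change of -1.01 and an adjusted p of 0.000231 in that fit, against 0.694 in the joint fit. Gabra5, the GABA receptor subunit enriched in hippocampal pyramidal cells, read 6.35, 6.57, 6.62 and 6.56 in mutants, against 7.30, 7.03 and 7.19 in controls (adjusted p = 0.0048 and 0.115 in the separate and joint fits). Epha7, an ephrin receptor, was 0.54 lower in mutants (adjusted p = 0.0126 and 0.0942), and Frzb, a secreted Wnt antagonist, 0.82 lower (0.0126 and 0.127).

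Rises found in that fit alone included Krt12, a keratin of the cornea, at 2.46, 2.45, 2.84 and 2.76 in mutants, against 1.19, 1.11 and 1.29 in controls (adjusted p = 0.000233 and 0.417). Kl, the hormone co-receptor klotho, which the choroid plexus also expresses, read 2.29, 2.23, 2.34 and 2.17 in mutants, against 1.39, 1.23 and 1.37 in controls (0.00218 and 0.55). All these genes were chosen after their values were seen.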
